A study of Mus musculus with 20 samples.

Results

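Hearts of 5 male mice aged 30 months and of 5 aged 5 months, all on the control diet with no tocopherol supplement, were compared. They are 10 of the 20 animals of the series, chosen by their labels as the unsupplemented mice. The other 10 animals, aged 30 months, were fed tocopherols and enter here only through the estimate of the spread between animals. The mice were bought as B6C3F1, first-generation crosses of the C57BL/6 and C3H strains. The strain label marks all 5 young controls and old controls 2, 3 and 5 as F1, while old controls 1 and 4 lack that mark. Each animal was housed alone and gave 1 heart sample and 1 oligonucleotide array. The question is how transcript levels in the heart differ between young adulthood and old age. The feeding state and the hour of sampling are not given in the sources used here.

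The adult heart makes most of its ATP by burning fatty acids in mitochondria, and takes the rest from glucose, lactate and ketone bodies. Fatty acids are activated to acyl-CoA, carried into mitochondria by the carnitine shuttle and shortened by beta-oxidation, and many of the genes involved are targets of the nuclear receptor PPAR alpha, which fatty acids activate. Pyruvate from glucose enters the citrate cycle through pyruvate dehydrogenase, which Pdk kinases switch off when fat is plentiful.

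A value below is the deposited intensity of a probe set, a set of short probes for 1 transcript, and values are given in the order of sample numbers 1 to 5. A difference is old minus young in log2(intensity + 58), so that 1 is a doubling of a bright transcript, with the standard error of the difference over 5 animals per group. The test was limma, two-sided, and its p-values were adjusted by the method of Benjamini and Hochberg across the 7453 probe sets tested; a difference was called where the adjusted p was below 0.05. Where a gene had several probe sets, the brightest tested one stood for it, unless another is named. In bulk heart RNA, fewer cells of a type and less RNA per cell cannot be told apart.

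Some arrays stood apart. Young control 3 carried lymphocyte transcripts, with a summed intensity of 17 T cell and thymus markers of 50397, against 6509 to 7688 in the other young and 5358 to 7175 in the old controls. Old control 3 had a 3′ to 5′ difference of 1.21 (log2) for the Gapdh control probe sets, a measure of RNA integrity, against -0.15 to -0.06 on the other 9 arrays, while its actin probe sets, at 0.23, lay within the range of the others. Counts for several gene groups are therefore also given without these 2 arrays, or without old controls 1 and 4. Counts given without such a check can move as well. The hybridization controls averaged 12.83 ± 0.20 in young and 12.74 ± 0.15 in old controls (log2, SD, n = 5 each; exact permutation test, two-sided, p = 0.47). The cardiomyocyte markers summed to intensities of 910948 to 1164338 in young and 914052 to 1051785 in old controls, and 0 of the 14 on the array lay below 2 times the 10th percentile of all values on every array.

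Age was the main axis of variation among the 10 arrays. The first principal component held 22.4% of the variance, with young controls between -19.5 and -5.2 and old controls between 10.1 and 17.9. The second, with 18%, set young control 3 apart at -32.8, and the third, with 14.4%, set old control 3 apart. Of the 7453 probe sets, 368 were called (4.94%), 204 of them higher in old hearts (2.74%) and 164 lower (2.20%). The groups did not overlap in 523 probe sets (7.02%), with old above young in 315 (4.23%) and below in 208 (2.79%), and 277 of the 523 were called. Most differences were modest, with a median of 0.62 among those called higher and -0.64 among those called lower, and 51 probe sets, 23 higher and 28 lower, reached a size of 1. Over 5663 named genes the median difference was 0.02, and 305 were called (5.39%), 170 higher (3.00%) and 135 lower (2.38%). These last shares are the background against which each gene group below should be read. Of 49 called genes with several tested probe sets, 40 had all of them on one side of 0 (81.6%), against 525 of all 909 such genes (57.8%), and in 0 of the 49 was another probe set called the opposite way.

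**Figure D1:**
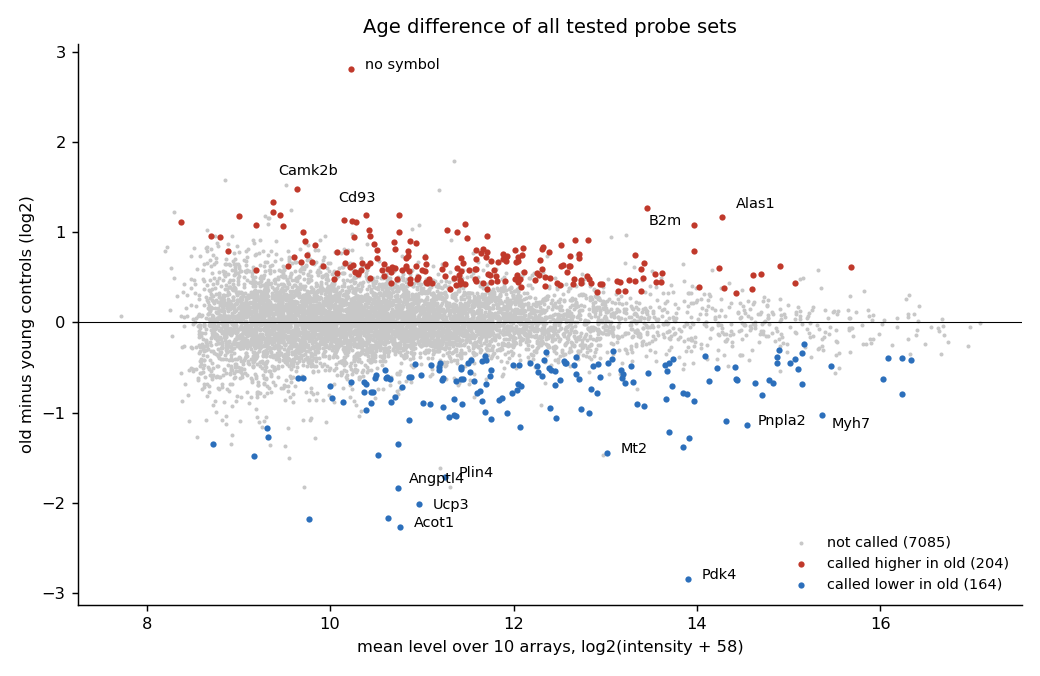
Difference between old and young controls (log2, vertical) against the mean level of each of the 7453 tested probe sets over the 10 arrays (log2 of intensity + 58, horizontal). Red points are the 204 probe sets called higher in old hearts, blue points the 164 called lower, and the labels name genes with large differences. The calls reach from Pdk4, at -2.84, to 1 unnamed probe set at 2.80.

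Many genes that handle fatty acids had lower transcript levels in old hearts. Among 30 tested PPAR alpha targets 17 were lower and 1 was higher, with a median of -0.54. Without young control 3 and old control 3 the counts were 20 lower and 0 higher, and without old controls 1 and 4 they were 12 and 1. The genes are grouped below by their place in the pathway, so that several are counted in more than 1 list.

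The largest fall was that of Pdk4, the pyruvate dehydrogenase kinase induced by fasting and by fatty acids. Pdk4 read 36165, 37480, 35769, 50018 and 47559 in young controls 1 to 5 and 4632, 4962, 9542, 3384 and 7786 in old controls 1 to 5. Every old heart was below every young one, and the difference was -2.84 ± 0.29 (adjusted p = 1.8e-06, limma). Of the other kinases, Pdk1 and Pdk3 differed by -0.24 ± 0.12 and 0.15 ± 0.27 and neither was called. Among the subunits of the dehydrogenase complex itself, Pdhb and Dld were higher, by 0.54 ± 0.13 and 0.39 ± 0.11 (adjusted p = 0.019 and 0.035, limma), while Dlat, at 0.16 ± 0.11, was not. With each animal left out in turn, Pdhb was called in 7 of 10 fits and Dld in 4 of 10, and neither was called without old controls 1 and 4.

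Acot1, a cytosolic thioesterase that splits long-chain acyl-CoA, and Ucp3, a mitochondrial carrier whose transcript follows fatty acid supply in muscle, fell by similar amounts. Acot1 read 3666, 4539, 2584, 4182 and 4097 in young controls 1 to 5 and 882, 522, 1054, 568 and 771 in old controls 1 to 5, a difference of -2.26 ± 0.20 (adjusted p = 1.3e-07, limma). Ucp3 read 4217, 3893, 2882, 4382 and 4808 in young controls 1 to 5 and 989, 1071, 831, 789 and 1064 in old controls 1 to 5, a difference of -2.01 ± 0.19 (adjusted p = 3.8e-07, limma). In both genes the 2 age groups were far apart. The 4 other tested thioesterases, Acot7, Acot8, Acot9 and Acot13, had differences of 0.09 to 0.54 and were not called.

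Genes for the storage and release of fat moved in both directions. Of 12 tested lipid droplet and lipolysis genes, 5 were lower and 2 higher, with a median of -0.46. Without old controls 1 and 4 the counts were 3 and 2, and without young control 3 and old control 3 they were 5 and 1. Angptl4, a secreted inhibitor of lipoprotein lipase, read 4224, 3413, 2531, 3182 and 2794 in young controls 1 to 5 and 903, 702, 966, 833 and 874 in old controls 1 to 5. All old values lay below all young ones, with a difference of -1.83 ± 0.14 (adjusted p = 2.2e-08, limma). A second Angptl4 probe set fell by 2.17 ± 0.32 on the log2 scale, and the remaining, dimmer one differed by -0.50 ± 0.41 and was not called. Plin4, a coat protein of lipid droplets, read 4455, 4784, 3636, 4706 and 4347 in young controls 1 to 5 and 1176, 1446, 1169, 919 and 1950 in old controls 1 to 5, a difference of -1.71 ± 0.18 (adjusted p = 1.8e-06, limma). Pnpla2, the lipase that starts triglyceride breakdown, read 34315, 44726, 32017, 33274 and 33763 in young controls 1 to 5 and 15111, 16248, 25818, 12252 and 13856 in old controls 1 to 5. Young control 2 was the highest, and the groups were separate, with a difference of -1.13 ± 0.14 (adjusted p = 4.5e-05, limma). The next lipase, Lipe, also fell (-0.91 ± 0.19), as did Gpam, which starts glycerolipid synthesis (-0.57 ± 0.13). The 2 genes that rose were G0s2, an inhibitor of the lipase that Pnpla2 encodes (0.76 ± 0.18, adjusted p = 0.012, limma), and Lpin1, a phosphatidate phosphatase (0.48 ± 0.09, adjusted p = 0.0019, limma). The perilipin Plin2, at -0.35 ± 0.17, was not called.

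At the cell surface 2 of 10 tested uptake and activation genes fell. These were the fatty acid transporter Slc27a1 (-1.16 ± 0.19, adjusted p = 0.00074, limma) and the lipoprotein receptor Vldlr (-0.88 ± 0.17, adjusted p = 0.0033, limma). A second Vldlr probe set, at -0.33 ± 0.24, was not called. Only 1 of the 10 genes was called lower without old controls 1 and 4. The transporter Cd36 (-0.35 ± 0.15), lipoprotein lipase Lpl (-0.30 ± 0.12) and the heart fatty acid binding protein Fabp3 (-0.18 ± 0.11) had smaller differences of the same sign and were not called.

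The carnitine shuttle list, which also holds genes that handle malonyl-CoA, had 5 of 7 tested genes called lower, 0 higher and a median of -0.64. Without old controls 1 and 4 the count was 3. Cpt1a, an outer membrane transferase that malonyl-CoA inhibits, read 2997, 2601, 5039, 3604 and 5189 in young controls 1 to 5 and 1962, 2035, 1857, 1608 and 1543 in old controls 1 to 5, a difference of -1.04 ± 0.22 (adjusted p = 0.0071, limma). All old values were again below all young ones. The inner membrane transferase Cpt2 (-0.64 ± 0.12), the translocase Slc25a20 (-0.44 ± 0.12), the short-chain transferase Crat (-0.67 ± 0.13) and Mlycd, which breaks down malonyl-CoA (-0.66 ± 0.12) fell as well. Fasn, which uses malonyl-CoA to build fatty acids and is counted in the same list, stood on the other side of 0. Fasn read 1099, 1231, 1635, 1592 and 1221 in young controls 1 to 5 and 4407, 4224, 4560, 3512 and 2690 in old controls 1 to 5, and every old heart was above every young one. Its difference of 1.47 ± 0.44 missed the threshold with the spread of all 20 arrays (adjusted p = 0.059, limma) and passed it in a fit of the 10 control arrays alone (adjusted p = 2e-04, limma).

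In the beta-oxidation spiral 5 of 15 tested genes were lower and 0 higher, with a median of -0.36. The 2 largest falls were in Eci1 (-0.81 ± 0.11, adjusted p = 0.0001, limma) and Decr1 (-0.78 ± 0.15, adjusted p = 0.0024, limma), auxiliary enzymes needed for unsaturated fatty acids. The other 3 were Hadh, Hadhb and Eci2, at -0.45 to -0.42. The acyl-CoA dehydrogenases Acadl and Acadm, at -0.43 ± 0.15 and -0.18 ± 0.08, were not called. Without old controls 1 and 4, 2 of the 15 were called lower. In peroxisomes, where very long chains are shortened, Ech1 (-0.79 ± 0.12) and Pex11a (-0.64 ± 0.13) fell, and the other 12 of 14 tested genes did not pass the test. Only 1 of the 14 was called lower without old controls 1 and 4.

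**Figure D2:**
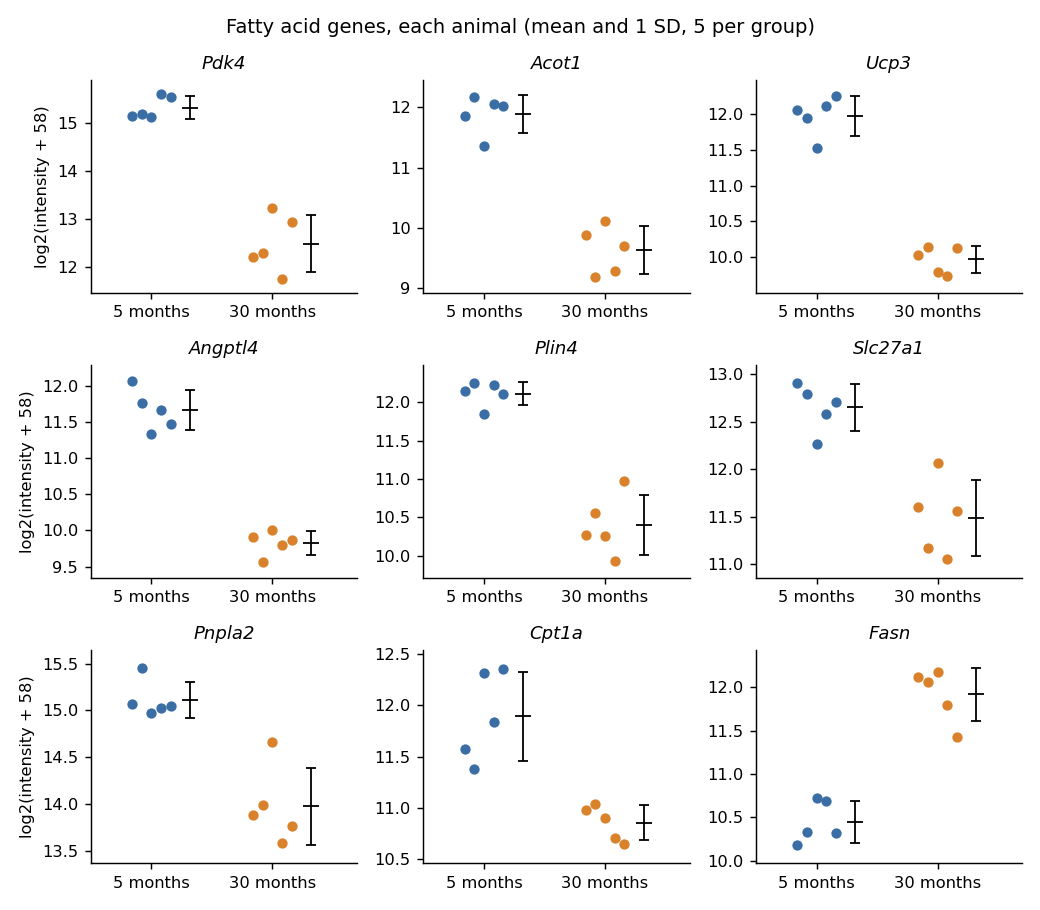
Levels of 8 fatty acid genes and Fasn on each of the 10 arrays, as log2(intensity + 58) on the vertical axis of each panel. Blue points are the 5 young controls, orange points the 5 old controls, and the bars show the mean with 1 SD. In the first 8 panels every old heart lies below every young one, and for Fasn every old heart lies above.

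To see whether the called PPAR alpha targets have a motif in common, promoters were read from the RefSeq annotation of GRCm38.p6, taking 250 bases before and 50 after each transcription start. The hexamer AGGTCA, recognised by PPAR and by other nuclear receptors, was searched on both strands. It occurred in the windows of 2 of the 15 called genes that have one in that table, Ucp3 and Cpt1a, and in 16.3% of all 32851 windows, so the called genes did not share it. The 2 windows that hold it are shown 5′ to 3′ on the strand of the gene, with each match in capitals. A match on the opposite strand reads TGACCT.
Ucp3, chr7:100472741-100473040, plus strand: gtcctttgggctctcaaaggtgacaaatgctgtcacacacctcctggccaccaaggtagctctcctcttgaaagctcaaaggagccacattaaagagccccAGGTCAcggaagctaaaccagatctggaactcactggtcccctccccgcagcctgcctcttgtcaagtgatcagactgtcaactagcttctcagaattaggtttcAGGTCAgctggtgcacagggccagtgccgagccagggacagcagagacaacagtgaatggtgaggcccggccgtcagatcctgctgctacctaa
Cpt1a, chr19:3323051-3323350, plus strand: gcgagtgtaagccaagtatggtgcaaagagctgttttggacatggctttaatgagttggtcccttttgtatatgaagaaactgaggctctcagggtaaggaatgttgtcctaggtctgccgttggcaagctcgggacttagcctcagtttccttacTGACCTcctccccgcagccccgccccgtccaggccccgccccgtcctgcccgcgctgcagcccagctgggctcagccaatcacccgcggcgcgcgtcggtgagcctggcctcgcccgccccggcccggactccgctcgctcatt
Ucp3 held 2 matches, as 1.81% of all windows do at least, and Cpt1a held 1. The windows cover only these 300 bases, and PPAR alpha binds many of its genes outside them.

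Some genes for other fuels were higher in old hearts. Of 18 tested genes of glucose uptake and glycolysis 5 were higher and 0 lower, with a median of 0.13. Hk2, the muscle hexokinase that traps glucose in the cell, read 4833, 5576, 3721, 5548 and 5409 in young controls 1 to 5 and 8015, 8378, 6968, 7203 and 8045 in old controls 1 to 5. Each old heart was above each young one, with a difference of 0.63 ± 0.12 (adjusted p = 0.002, limma). The insulin-responsive transporter Slc2a4 (0.50 ± 0.09), phosphoglycerate kinase Pgk1 (0.55 ± 0.11), the enolase Eno3 (0.44 ± 0.13) and the phosphofructokinase Pfkl (0.42 ± 0.12) rose as well. Fbp2, the muscle fructose-bisphosphatase that works against phosphofructokinase, fell by 1.08 ± 0.19 on the log2 scale (adjusted p = 0.0016, limma), and Txnip, which restrains glucose uptake, fell by 1.21 ± 0.19 (adjusted p = 0.00052, limma). A second Txnip probe set differed by -0.23 ± 0.18 and was not called. The count of 5 glycolysis calls became 3 to 5 with each animal left out in turn, and 2 without old controls 1 and 4. Limma called 0 of the 14 tested glycogen genes and 0 of the 17 citrate cycle genes, of which 5 and 2 had an unadjusted p under 0.05, as 1342 of all 7453 probe sets did.

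Oxct1, the transferase that lets muscle burn ketone bodies, read 10915, 12216, 10820, 14911 and 12138 in young controls 1 to 5 and 20425, 20408, 22862, 19768 and 22009 in old controls 1 to 5. Its groups were separate and its difference was 0.79 ± 0.11 (adjusted p = 0.00016, limma). Glud1, glutamate dehydrogenase, was also higher (0.53 ± 0.15), while Bckdha, a subunit of the branched-chain keto acid dehydrogenase, was lower (-0.46 ± 0.13). With each animal left out in turn, Glud1 was called in 1 of 10 fits and Bckdha in 3 of 10, and the other 7 tested ketone and amino acid genes were not called.

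Few transcripts for the respiratory chain were called. For complexes II and III and cytochrome c 1 of 13 tested genes was higher and 0 lower. In that list 12 lay above 0, with a median of 0.11. In complex I 1 of 27 tested genes was lower and 0 higher (median 0.00), in complex IV 1 of 13 was higher, and in complex V 0 of 12 were called by limma, with 2 at an unadjusted p under 0.05. The complex I gene was Ndufv1, at -0.39 ± 0.11 (adjusted p = 0.046, limma). It read 43389 in old control 3 and 63448 to 66815 in the other old hearts. Cycs, the cytochrome c that carries electrons between complexes III and IV, read 4220, 4938, 4219, 5852 and 5071 in young controls 1 to 5 and 8480, 8577, 7840, 7083 and 8416 in old controls 1 to 5. Its old values lay above the young ones, with a difference of 0.73 ± 0.13 (adjusted p = 0.0019, limma). The complex IV subunit Cox7b rose by 0.37 ± 0.10. Cox6b2, another complex IV gene that is not in the counted list, differed by -1.34 ± 0.29 (adjusted p = 0.0074, limma). It was dim, at 350 to 744 in young and 88 to 324 in old hearts.

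Calls in the list for the mitochondrial ribosome, protein import and carriers were all higher. Those in the list for the cytosolic ribosome and elongation factors were all lower. Among 40 tested genes of the mitochondrial ribosome, protein import and carriers, 7 were higher and 0 lower, with a median of 0.26 and 31 above 0. Mrpl39, of the large mitochondrial subunit, read 2091, 2822, 2280, 3404 and 3009 in young controls 1 to 5 and 3411, 3897, 5163, 4605 and 4729 in old controls 1 to 5, a difference of 0.68 ± 0.14 (adjusted p = 0.0047, limma). Mrps22, of the small subunit, read 409, 438, 434, 317 and 449 in young controls 1 to 5 and 1088, 901, 1086, 1102 and 870 in old controls 1 to 5, a difference of 1.19 ± 0.20 (adjusted p = 0.00083, limma). In both genes every old heart was above every young one. The outer membrane channels Vdac2 (0.70 ± 0.18) and Vdac3 (0.51 ± 0.13) rose, as did the import subunit Timm22 (1.12 ± 0.20), which is outside that list. The list holds part of the family, so all tested genes with symbols starting Mrpl or Mrps were counted after these values were seen. Of 59 such genes 8 were higher and 0 lower, 52 were above 0, and the median was 0.26. With each animal left out in turn the list's count was 4 to 8, lowest without old control 1, and without old controls 1 and 4 it was 2, while that of the 59 genes was 6.

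In the cytosol 7 of 23 tested ribosome and elongation factor genes were lower and 0 higher, with a median of -0.21 and 2 above 0. The elongation factor Eef2 read 35992, 33422, 31322, 28718 and 30934 in young controls 1 to 5 and 20560, 21344, 20217, 17607 and 20717 in old controls 1 to 5. Its old values were all below the young ones, with a difference of -0.67 ± 0.08 (adjusted p = 9.3e-06, limma). Eef1a1, the other general elongation factor, fell by 0.69 ± 0.18 (adjusted p = 0.031, limma). It read 45748, 36639, 59389, 43136 and 47697 in young controls 1 to 5 and 31886, 33670, 15226, 31471 and 36724 in old controls 1 to 5, with old control 3 the lowest. The ribosomal genes were Rpl10a, Rps4x, Rps18, Rpl19 and Rps3a1, at -0.48 to -0.23. A second Rpl10a probe set differed by 0.18 ± 0.20 and was not called. Counted by symbol after the values were seen, 5 of 25 genes starting Rpl or Rps were lower and 23 were below 0, with a median of -0.15. The list's count depended on single arrays, at 2 to 6 with each animal left out in turn, and at 2 without young control 3. It was 4 without young control 3 and old control 3, 1 without old controls 1 and 4, 3 after quantile normalization and 2 in the 10 control arrays alone. Ribosomal genes have many near-identical pseudogene copies, and the probe sets may not tell these apart.

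**Figure D3:**
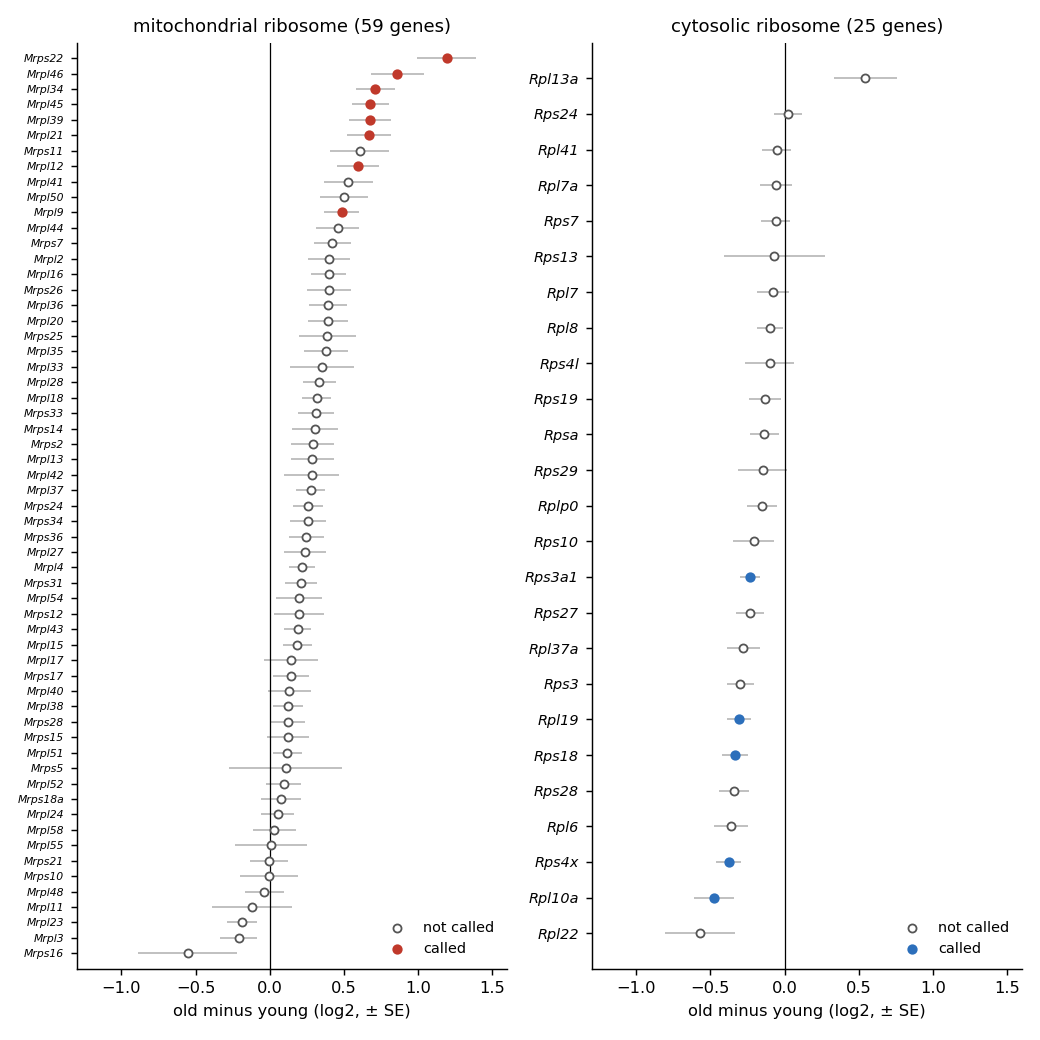
Difference between old and young controls (log2, horizontal) of each tested gene with a symbol starting Mrpl or Mrps (59 genes, left) and Rpl or Rps (25 genes, right), ordered by size, with 1 standard error. Filled points were called, and the vertical line marks 0. Most mitochondrial genes lie right of 0, with a median of 0.26, and most cytosolic ones left of it, with a median of -0.15.

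The contractile apparatus differed in a few isoforms. Myh7, the slow myosin heavy chain that mouse ventricles express in fetal life and under load, read 82156, 69845, 45279, 55779 and 54262 in young controls 1 to 5 and 24944, 38368, 29415, 37528 and 21637 in old controls 1 to 5. No old value reached the lowest young one, and the difference was -1.02 ± 0.20 (adjusted p = 0.0035, limma). A second, far dimmer Myh7 probe set also fell, by 1.48 ± 0.33, with overlap between the groups. The adult chain Myh6 differed by 0.18 ± 0.11 and was not called. Myh6 read 76687 to 92594 in young hearts, and whether the Myh7 probe sets also detect related chains was not tested. Myom2, an M-band protein, fell by 0.95 ± 0.17. Of the light chains, Myl4, an atrial and fetal form, and Myl1, a form of fast skeletal muscle and atria, were higher (0.63 ± 0.17 and 0.85 ± 0.16). A second Myl4 probe set differed by 0.14 ± 0.26 and was not called. Myl1 kept its call under every setting tried, while that of Myl4 was lost without young control 1, 2, 3 or 4 and without old control 1, 2, 3 or 5.

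In the thin filament 2 of 13 tested genes were higher and 0 lower. Tnnt1, the slow skeletal troponin T, read 1627, 1562, 1394, 1519 and 1542 in young controls 1 to 5 and 2448, 2533, 2266, 2318 and 2343 in old controls 1 to 5. The old hearts were all above the young ones, with a difference of 0.62 ± 0.10 (adjusted p = 0.00086, limma), and a second probe set differed by 1.11 ± 0.26. Tpm4, a non-muscle tropomyosin, differed by 0.91 ± 0.13 (adjusted p = 0.00021, limma). The skeletal actin Acta1, at 0.96 ± 0.33, was not called (adjusted p = 0.1, limma). Of 24 Z-disc and costamere genes 3 were lower, Nrap, Tcap and Des (-0.71 ± 0.12, -0.62 ± 0.18 and -0.53 ± 0.14), and 2 were higher, Fhl2 and Pdlim7 (0.62 ± 0.08 and 0.47 ± 0.13). Tcap, Des and Pdlim7 lost their calls with single animals left out, and a second Pdlim7 probe set, at -0.0027 ± 0.13, was not called.

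Camk2b, a calcium-dependent kinase, had the largest rise among called genes with a name. Camk2b read 374, 340, 539, 653 and 281 in young controls 1 to 5 and 1417, 1289, 969, 1130 and 1662 in old controls 1 to 5. The lowest old value was above the highest young one, with a difference of 1.48 ± 0.30 (adjusted p = 0.0047, limma). Casq2, which stores calcium in the sarcoplasmic reticulum, also rose (0.60 ± 0.13), as did Speg, a kinase of striated muscle (1.09 ± 0.15), and Gja1, which forms the gap junctions of the ventricle (0.53 ± 0.12). The calcium pump Atp2a2 (0.08 ± 0.09) was not called, and neither were the other 18 tested calcium cycling genes.

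The natriuretic peptides, common markers of cardiac load, were not called. Nppa read 15457, 18065, 16422, 17058 and 23781 in young controls 1 to 5 and 23435, 22740, 23468, 23213 and 28852 in old controls 1 to 5, with old control 5 the highest of all 10. Its difference was 0.43 ± 0.13 (adjusted p = 0.063, limma). Nppb differed by -0.13 ± 0.26. Corin, the protease that activates the Nppa product, read 4518, 4611, 3400, 6049 and 6556 in young controls 1 to 5 and 2587, 2259, 2584, 2798 and 3213 in old controls 1 to 5. It was lower in each old heart than in any young one, by -0.86 ± 0.16 (adjusted p = 0.0024, limma). The 16 tested natriuretic and fetal stress genes held 1 call, the fall of Myh7. Of the 7 tested atrial markers, Myl4 alone was called. All 9 atrial markers on the array, tested or not, had a summed intensity of 68401 to 120236 in young and 102440 to 137972 in old hearts. In an exact permutation test, two-sided, p was 0.032, and 0.13 after adjustment over 37 array measures. The part of atrial tissue in the rise of Myl4 was not tested.

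**Figure D4:**
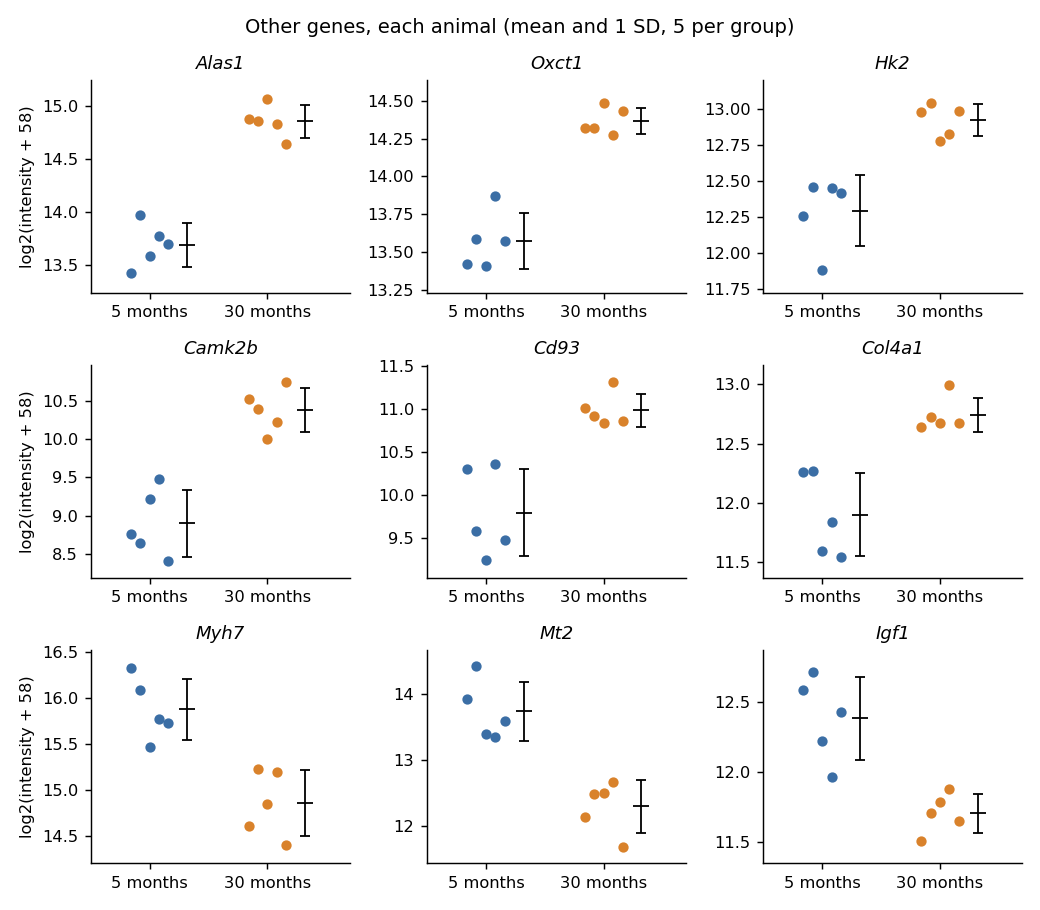
Levels of 9 further genes on each of the 10 arrays, as log2(intensity + 58) on the vertical axis of each panel, with the 5 young controls in blue, the 5 old controls in orange and the mean with 1 SD. Alas1, Oxct1, Hk2, Camk2b, Cd93 and Col4a1 are higher in every old heart than in any young one, and Myh7, Mt2 and Igf1 are lower.

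Some vessel and basement membrane transcripts were higher. Of 15 tested endothelial markers 3 were higher and 0 lower, with a median of 0.24. Cd93, a surface protein of endothelial and myeloid cells, read 1206, 710, 550, 1258 and 658 in young controls 1 to 5 and 2000, 1869, 1765, 2472 and 1792 in old controls 1 to 5. Its old values were all above the young ones, with a difference of 1.19 ± 0.20 (adjusted p = 0.0011, limma). The tight junction protein Cldn5 (0.95 ± 0.23) and the adhesion protein Pecam1 (0.65 ± 0.14) rose too, while Cdh5 (0.38 ± 0.14), Kdr (0.33 ± 0.17) and Vwf (-0.31 ± 0.15) did not pass the test. The mean log2 level of all 16 endothelial markers on the array was 10.66 ± 0.17 in young and 10.92 ± 0.05 in old hearts (SD, n = 5 each), with no overlap. In an exact permutation test, two-sided, p was 0.0079, the smallest that 5 against 5 arrays allow, and 0.073 after Benjamini-Hochberg adjustment over 37 array measures. The summed intensity of the same 16 markers overlapped, at 34149 to 44511 in young and 42836 to 49818 in old hearts. In the exact permutation test of that sum p was 0.071, and 0.22 after adjustment. Without young control 3 and old control 3, 2 of the markers were called, and without old controls 1 and 4, 1 was.

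Basement membrane genes held 3 rises among 14. Col4a1, a chain of collagen IV, read 4847, 4874, 3039, 3608 and 2926 in young controls 1 to 5 and 6325, 6734, 6465, 8092 and 6465 in old controls 1 to 5, a difference of 0.84 ± 0.15 (adjusted p = 0.0019, limma). Old control 4 was the highest, and the lowest old heart exceeded the highest young one. Its partner chain Col4a2 (0.35 ± 0.10) and Col15a1 (1.00 ± 0.22) were the other 2. Without old controls 1 and 4 the count was 1, and without young control 3 and old control 3 it was 2. The fibrillar collagens did not pass the test, with Col1a1 at 0.14 ± 0.18 and Col3a1 at 0.49 ± 0.26, and limma called 0 of 11 genes of that list and 0 of 27 TGF-beta and BMP genes, with 3 and 4 at an unadjusted p under 0.05.

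The largest rise of all was that of 95407_at, a probe set without a gene symbol in the annotation used. It read 434, 332, 440, 544 and 281 in young controls 1 to 5 and 2342, 3493, 3100, 3399 and 3391 in old controls 1 to 5. Its difference was 2.80 ± 0.17 (adjusted p = 7.4e-10, limma), and the lowest old heart was above 4 times the highest young one.

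Alas1, which makes the first committed precursor of heme, read 10895, 16022, 12244, 13910 and 13196 in young controls 1 to 5 and 30027, 29639, 34173, 29053 and 25381 in old controls 1 to 5. The 2 groups were well separated, with a difference of 1.16 ± 0.10 (adjusted p = 1.3e-07, limma). None of the other 8 tested heme synthesis genes was called, with Alas2, the erythroid form, at 0.49 ± 0.32.

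Several genes that glucocorticoids raise were lower in old hearts. Of 22 tested, 7 were lower and 0 higher, with a median of -0.31. Zbtb16, a transcription factor, read 2253, 2201, 2724, 2198 and 2648 in young controls 1 to 5 and 1095, 916, 674, 967 and 598 in old controls 1 to 5, a difference of -1.47 ± 0.28 (adjusted p = 0.0031, limma). Fkbp5, a co-chaperone of the glucocorticoid receptor, read 1424, 2906, 6563, 1902 and 2616 in young controls 1 to 5 and 943, 1187, 946, 996 and 1045 in old controls 1 to 5. Young control 3 had by far the highest value, yet each of the other young hearts was also above all old ones, and the difference was -1.34 ± 0.38 (adjusted p = 0.039, limma), called in 2 of 10 fits with an animal left out. Mt2, a metal-binding metallothionein, read 15564, 22092, 10708, 10416 and 12375 in young controls 1 to 5 and 4461, 5716, 5762, 6500 and 3233 in old controls 1 to 5. The old values were all below the young ones, with a difference of -1.44 ± 0.20 (adjusted p = 9.3e-05, limma). Its neighbour Mt1 differed by -0.78 ± 0.20, Ddit4, an inhibitor of mTOR signalling, by -1.02 ± 0.24, the transcription factor Cebpb by -0.75 ± 0.21 and the NF-kappa-B inhibitor Nfkbia by -0.51 ± 0.15, all of them called. The list's other members include Sgk1 (-0.23 ± 0.18) and Tsc22d3 (0.18 ± 0.38), which were not called. The count was 3 to 7 with each animal left out in turn, 4 without young control 3, and 2 without old controls 1 and 4.

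Mt1 and Mt2 lie side by side on chromosome 8 and respond to metals as well as to glucocorticoids. Their RefSeq promoter windows on GRCm38.p6 are shown with each TGCNCNC in capitals, a looser form of the core of the metal response element, whose first N is a purine (N is any base here, both strands, overlapping matches counted separately).
Mt2, chr8:94172368-94172667, plus strand: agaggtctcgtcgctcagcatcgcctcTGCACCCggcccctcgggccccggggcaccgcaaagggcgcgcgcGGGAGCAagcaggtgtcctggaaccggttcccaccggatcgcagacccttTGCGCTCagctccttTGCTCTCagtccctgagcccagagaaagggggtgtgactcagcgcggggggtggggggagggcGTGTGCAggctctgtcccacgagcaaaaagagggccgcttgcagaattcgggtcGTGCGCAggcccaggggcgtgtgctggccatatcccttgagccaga
Mt1, chr8:94178839-94179138, plus strand: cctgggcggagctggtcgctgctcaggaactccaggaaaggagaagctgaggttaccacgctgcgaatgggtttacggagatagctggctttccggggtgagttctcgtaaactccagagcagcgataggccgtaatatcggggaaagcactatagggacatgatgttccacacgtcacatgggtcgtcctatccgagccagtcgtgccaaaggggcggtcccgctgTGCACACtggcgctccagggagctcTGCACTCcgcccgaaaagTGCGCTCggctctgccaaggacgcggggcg
Mt2 held 6 matches, as 0.225% of all 32851 windows do at least, and Mt1 held 3, as 7.1% do at least. At least 1 match was present in 51% of all windows.

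Immediate early genes, which respond within minutes to stress and handling, partly overlap the glucocorticoid list. Of 17 tested, 4 were lower, Cebpb, Btg2, Zfp36 and Klf6, at -0.75 to -0.47, and 0 were higher. The count was 1 to 4 with each animal left out in turn and 0 without old controls 1 and 4. Egr1, a factor induced with them, differed by -0.57 ± 0.27 and was not called. Among 15 tested clock genes 1 was called, Bhlhe40 (0.60 ± 0.16). In 2 of the 15 all old hearts lay above all young ones and in 1 below, against 4.23% and 2.79% of all probe sets. Dbp, Nr1d1 and Per1, whose levels swing over the day, differed by 0.74 ± 0.30, 0.55 ± 0.18 and -0.73 ± 0.33 with no overlap between the groups. They were not called with the spread of all 20 arrays, and had adjusted p-values of 0.011, 0.027 and 0.011 in a limma fit of the 10 control arrays alone. Arntl, at 0.78 ± 0.31, was called in neither fit (adjusted p = 0.16 in both, limma). The hour of sampling was not used here, and its part in these differences was not tested.

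In the growth factor pathway 2 of 16 tested insulin and IGF genes were lower and 0 higher. Igf1, a growth factor that the heart makes as well as the liver, read 6097, 6670, 4721, 3944 and 5469 in young controls 1 to 5 and 2855, 3286, 3464, 3715 and 3146 in old controls 1 to 5. All old values lay below all young ones, with a difference of -0.68 ± 0.15 (adjusted p = 0.0073, limma). Foxo3, a transcription factor that insulin signalling keeps out of the nucleus, fell by 0.60 ± 0.14. The receptor Igf1r (-0.17 ± 0.17) and the kinase Akt2 (-0.31 ± 0.15) were not called. The transcripts of the receptor PPAR alpha and its partners were not called either, with Ppara at 0.31 ± 0.13, Rxrg at 0.32 ± 0.19 and the coactivator Ppargc1a at -0.23 ± 0.28.

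Few genes of defence against oxidants were called. Of 18 tested genes in the list for superoxide dismutases, peroxidases, thioredoxins and their regulators 2 were lower and 0 higher. The 2 were Sesn1 (-0.61 ± 0.14) and Txnip, which is not itself a thioredoxin. The superoxide dismutases Sod1 (-0.05 ± 0.27) and Sod2 (0.24 ± 0.12) were not called. The 2 probe sets of catalase, Cat, disagreed. The brighter one differed by -0.20 ± 0.12 and was not called, while the other, at 3954 to 5460 in young and 1878 to 2886 in old hearts, fell by 0.99 ± 0.15 (adjusted p = 3e-04, limma). Of the glutathione and detoxification genes Mgst3 (-0.63 ± 0.15) and Gstm1 (-0.45 ± 0.09) fell, though a second Gstm1 probe set, at -0.13 ± 0.14, was not called, and the quinone reductase Cryz rose by 1.34 ± 0.37. The call of Cryz was lost in 8 of the 10 fits with an animal left out, and the other 25 of 28 tested genes were not called.

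Protein quality control showed scattered calls. Among 26 heat shock genes Hsph1 (0.80 ± 0.16), the mitochondrial co-chaperonin Hspe1 (0.47 ± 0.11) and Fkbp4 (0.45 ± 0.11) were higher, and Hspa1l was lower (-0.66 ± 0.18). Without young control 3 and old control 3, 1 was higher and 1 lower. Limma called 0 of the 20 tested ER chaperone and unfolded protein response genes, though 18 lay below 0 with a median of -0.23, and 0 of 30 proteasome genes. At an unadjusted p under 0.05 there were 2 and 7. The autophagy adaptor Sqstm1 fell by 0.90 ± 0.15 (adjusted p = 0.00083, limma), 1 call among 30 autophagy and lysosome genes. Retreg1, a receptor for autophagy of the endoplasmic reticulum, fell by 1.09 ± 0.15 (adjusted p = 8.4e-05, limma), and Bnip3, a mitophagy receptor, by 0.87 ± 0.16 (adjusted p = 0.0024, limma). The anti-apoptotic Bcl2l1 fell by 0.65 ± 0.13.

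Markers of cell ageing gave 1 call among 23 senescence and cell cycle genes. Ccnd1, the cyclin that drives entry into the cell cycle, read 1595, 1950, 1696, 1377 and 1853 in young controls 1 to 5 and 3542, 3503, 2829, 4466 and 3290 in old controls 1 to 5. Each old heart was above each young one, with a difference of 1.03 ± 0.14 (adjusted p = 0.00012, limma). A second Ccnd1 probe set differed by 0.23 ± 0.19, with overlap, and was not called. The cell cycle inhibitors Cdkn1a (-0.11 ± 0.23) and Cdkn2a (0.21 ± 0.36) were not called. The p53 target Ccng1 was higher by 0.64 ± 0.14. Among 23 tested p53 and DNA damage genes 1 was higher and 2 were lower, with a median of -0.0046.

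Immune transcripts rose in places. The MHC light chain B2m read 7373, 9566, 25018, 11106 and 8079 in young controls 1 to 5 and 23967, 22050, 24546, 23215 and 22907 in old controls 1 to 5. Young control 3, with its lymphocyte transcripts, reached 25018, and the other young hearts lay between 7373 and 11106, below every old one. The difference was 1.08 ± 0.31 (adjusted p = 0.041, limma). Among 18 antigen presentation genes B2m was the 1 call, against 2 without young control 3 and old control 3 and 3 without young control 3 alone. The count was 0 when any other single animal was left out, and 0 without old controls 1 and 4. The chemokine Ccl8 rose by 1.14 ± 0.28 and Cxcl14 by 0.66 ± 0.17, and Ccl22 fell by 0.97 ± 0.24. None of the 3 was called without young control 3 and old control 3. Limma called 0 of the 21 tested interferon-responsive genes, while 18 lay above 0, with a median of 0.24, and 5 had an unadjusted p under 0.05. Macrophage markers held 0 calls by limma among 15 and 0 at an unadjusted p under 0.05, with a median of 0.05.

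Adipocyte markers had lower levels in old hearts, short of the threshold after adjustment, and their sum rested on Pnpla2. The 14 markers on the array summed to 102136 to 132022 in young and 83145 to 98093 in old hearts (exact permutation test, two-sided, p = 0.0079, and 0.073 after Benjamini-Hochberg adjustment over 37 measures). Pnpla2, which heart muscle also expresses, makes up the separation of the sums, since the other 13 markers summed to 70119 to 98748 in young and 69184 to 73205 in old hearts. Their sum without Pnpla2 was taken after the values were seen. The mean log2 level of the 14, in which each gene counts alike, was 11.06 to 11.56 in young and 10.78 to 10.94 in old hearts, with the same p-values. The markers did not all differ the same way, and 3 of the 11 tested lay above 0, none of them called. Scd1, a desaturase, was 1 of these, at 0.46 ± 0.64. Adipoq, the hormone adiponectin that fat cells make, read 4545, 3151, 4160, 5938 and 3072 in young controls 1 to 5 and 1599, 1359, 1298, 1030 and 1210 in old controls 1 to 5. Each young heart was above each old one. Its difference of -1.61 ± 0.56 was not called with the spread of all 20 arrays (adjusted p = 0.1, limma) and was called in the 10 control arrays alone (adjusted p = 2e-04, limma). Of the 11 tested markers, those called were Pnpla2 and Lipe, both expressed in heart muscle too. The part of fat tissue on the samples in the lower lipid droplet and lipolysis genes was not tested. Skeletal muscle markers summed to 41420 to 55299 in young and 55992 to 66218 in old hearts. Without Eno3, an enolase described above, and again after the values were seen, the other 16 summed to 17154 to 22208 and 16740 to 23540, and the mean log2 level of all 17 was 9.55 ± 0.20 in young and 9.54 ± 0.17 in old hearts (SD, n = 5 each). Liver markers summed to 11904 to 26000 in young and 11101 to 33843 in old hearts. Of 10 tested, 6 lay above 0 and 1 was called, Cyp2e1, at -0.65 ± 0.18 (adjusted p = 0.035, limma). In 2 of the 10 every old heart lay below every young one.

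**Figure D5:**
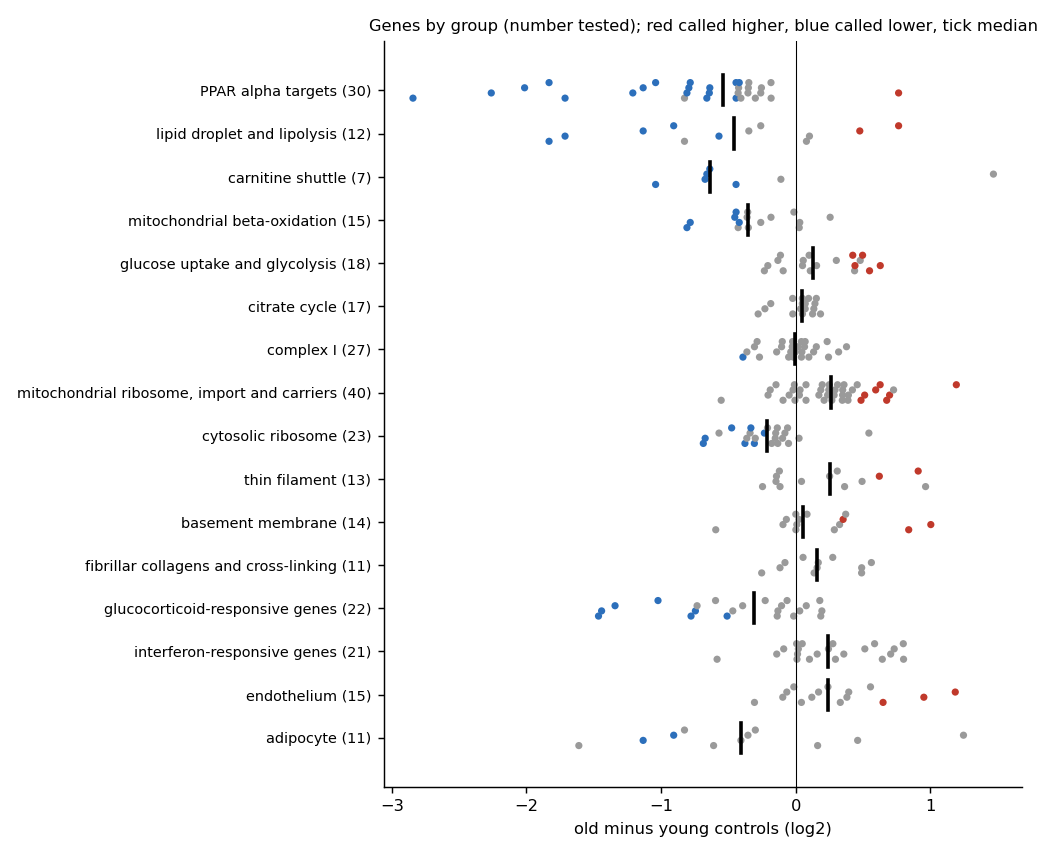
Difference between old and young controls (log2, horizontal) of every tested gene in 16 of the gene groups, 1 point per gene, with called genes in red (higher) or blue (lower) and others in grey. The black tick is the group's median. All but 1 gene lie left of 0 among the PPAR alpha targets (the exception is G0s2) and in the carnitine shuttle group (Fasn), mitochondrial ribosome and import genes mostly right, and complex I and citrate cycle genes around 0.

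A set of 126 probe sets was tested and called under each of the 25 settings tried, 61 of them higher and 65 lower in old hearts, and 115 had 1 gene symbol. They include Pdk4, Acot1, Ucp3, Angptl4, Plin4, Slc27a1, Pnpla2, Crat, Mlycd, Cpt2, Eci1, Decr1 and Ech1 among fatty acid genes, and Alas1, Oxct1, Hk2, Slc2a4, Cycs, Mrpl39, Cd93, Col4a1, Ccnd1, Tpm4 and Tnnt1 among those that rose. Camk2b and Mrps22 were called under each of the 24 settings that tested them, being too dim for the filter that left out 60%. Cpt1a was called under 24 of the 25 settings, Fkbp5 under 13 and B2m under 12.

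The spread between animals was close at the 2 ages. The median SD over probe sets was 0.25 in young and 0.23 in old hearts (log2, 5 animals each), and without young control 3 and old control 3 it was 0.22 and 0.20. The SD was larger in old hearts for 44.1% of probe sets, for 52.2% without young control 3 and for 42.8% without both of these arrays, a description of 5 animals per group with no test.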

How the data were processed

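Transcript levels were measured in hearts of 10 control mice, 5 per age, with 1 oligonucleotide array per animal. Per the labels' protocols, polyadenylated RNA was purified from total RNA of frozen tissue, copied with an oligo-dT primer and transcribed into fragmented biotin-labelled RNA. The deposited table holds a linear intensity per probe set and array, and its software is not named in the sources used here. The authors' arrays share a trimmed mean, so their scaling was kept.

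Of 12488 probe sets, 66 controls were dropped, and so was the dimmest 40% of the remainder, to leave 7453, and log2(intensity + 58) of the deposited values was tested. The pseudocount is the 10th percentile and understates changes of dim probe sets. One limma model (version 3.58.1, R 4.3.3) took the group means of the 20 arrays (trend and robust eBayes, 16 residual degrees of freedom), so the supplemented mice help set the spread. P-values were adjusted by Benjamini-Hochberg, and exact permutation tests served for array measures. Alternatives were other pseudocounts, filters and scalings, array weights, no variance trend, the 10 control arrays alone with or without covariates or a replicate block, arrays left out, and a gene taken as the mean of its probe sets. Precision is limited by the number of animals, at a median standard error of 0.179. The steps were tested on simulated data.

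Symbols came from the platform annotation, which gave 1 symbol to 10833 probe sets, several to 396 and none to 1193, and probe sets with several were not named. The comparison, 52 gene lists, 15 marker lists and the rule for named genes were chosen with earlier results of these data known. The rule took the 20 highest and 20 lowest called genes, up to 6 called members per list, all members called in lists with 5 or fewer calls, and 20 fixed genes. Other genes named were chosen after their values were seen.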

Additional observations from a re-analysis of the deposited data

Results flagged for a closer look

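In 336 groups of 5 values, 148 of the named genes and 20 array measures at each age, the most extreme value was set against the others by Dixon's ratio, and 26 stood apart. Chance alone gives about 1 in 20 such groups. Old control 3 had the Gapdh 3′ to 5′ difference of 1.2106. Young control 3 had the highest sums of the T cell (50397), B cell (37148) and epicardium and mesothelium (9605) lists, the others reaching 7688, 11724 and 5157. Ighm alone made up 26238 of the B cell sum. In the last list the keratins Krt8, Krt18 and Krt7 read 3553, 2094 and 540. Its other members Wt1, Upk3b, Msln, Krt19 and Aldh1a2 did not stand above the other young hearts. Old control 5 had the lowest erythroid sum, 158636, against at least 187735.

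Single genes are given as log2(intensity + 58). In young control 3, Eci1 (14.68), Fbp2 (10.83), Gja1 (13.79) and Nrap (13.61) were lower than in the other young hearts, and Rpl10a (14.13) and Pdk3 (9.995) were higher. In old control 3, Eef1a1 (13.90), Ndufv1 (15.41) and Pdhb (14.64) were lower than in the other old hearts and Cdkn2a (9.62) was higher. In old control 4, Crat (12.41), Ccng1 (12.60) and Eef2 (14.11) were the lowest, and Bcl2l1 (11.42) and Col4a1 (12.99) the highest. Old control 5 had the highest Nppa (14.82) and Casq2 (11.95) and the lowest Ppargc1a (8.39). Young control 2 had the highest Pnpla2 (15.45) and Sod2 (13.15), and young control 4 the lowest Mrps22 (8.55).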

How the results depend on the processing

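The 368 calls, 204 higher and 164 lower, stayed within 1.5 times under 22 of the 24 other settings. Array weights gave 731 (426 higher, 305 lower), with 365 of the 368 among them. Without old controls 1 and 4, which leaves 3 old hearts, there were 150 (79 higher, 71 lower), 147 of them among the 368. Leaving out each animal in turn gave 258 to 367 calls, 137 to 216 of them higher and 120 to 177 lower. Without young control 3 and old control 3 there were 361, and 273 were shared.

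The fit of the 10 control arrays alone gave 365 calls, 293 of them shared. With the sample number as a replicate block in those arrays there were 370, 281 shared. Deviations of arrays with the same number correlated at 0.041 to 0.101, so the numbers were not taken to pair the animals.

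Over the 24 other settings, 12 to 20 PPAR alpha targets, 3 to 5 carnitine shuttle, 2 to 8 beta-oxidation, 2 to 10 glucocorticoid-responsive and 1 to 10 cytosolic ribosome genes were called lower. Higher were 2 to 15 genes of the mitochondrial ribosome, import and carriers, 2 to 6 of glucose uptake and glycolysis and 1 to 4 endothelial markers. The lowest of these counts came without old controls 1 and 4.

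Of the called genes named, 105 were followed through the settings, and Cox6b2 and Cyp2e1 were not. Among the 105, 0 changed direction, 49 were called under every setting that tested them and 70 with each animal left out in turn. The other 35 lost the call without at least 1 animal. These were B2m, Bckdha, Bhlhe40, Btg2, Ccl22, Ccl8, Cebpb, Col4a2, Cox7b, Cryz, Cxcl14, Des, Dld, Eci2, Eef1a1, Eno3, Fkbp5, Glud1, Hspa1l, Mt1, Myl4, Ndufv1, Nfkbia, Pdhb, Pdlim7, Pfkl, Rpl10a, Rpl19, Rps18, Rps3a1, Slc25a20, Tcap, Vdac2, Vdac3 and Zfp36. Differences near 0 of uncalled genes changed sign. With single animals left out Sod1 ranged from -0.153 to 0.106, Col1a1 from -0.0132 to 0.2339, Cdkn1a from -0.2973 to 0.0153 and Tsc22d3 from -0.0947 to 0.4514. Sod1 was 0.0136 with array weights and 0.0697 without old controls 1 and 4. Col1a1 was -0.0032 with array weights and -0.0103 without young control 3 and old control 3, where Atp2a2 was -0.0032. The causes were not tested. The small number of animals limits what can be detected, with 90% of standard errors between 0.102 and 0.406.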
